A study of Mus musculus with 8 samples.

Results

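Some array probe sets cannot be assigned to a single gene, because their probes match several near-identical copies or lie where gene models overlap. Of the 1810 probe sets that the platform annotation gives 2 or more different gene symbols, 65 are described here, out of 41345 probe sets on the array. Each differed by 1 or more on the log2 scale, that is 2-fold or more, in R284S control cells against vector control cells or in hSTING cells after double-stranded DNA (dsDNA) against hSTING control cells. The brighter array of that pair had to read 4.5 or more, a level below which 61.1% of all values lay. These are the values that chose the members, so they are given as a description: 15 members met the R284S difference alone, 25 the dsDNA difference alone and 25 both.

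The 8 arrays came from STING-/- mouse embryonic fibroblasts (MEFs), labelled as primary cells, so every culture lacked the endogenous gene. The cells had been reconstituted with the empty vector pBabe, with hSTING, with the mutant N154S or with the variant R284S. Per the series' design text, the hSTING construct was wild type and N154S is a mutant of SAVI, an inflammatory disease with onset in infancy. Each of the 4 constructs had 1 control array and 1 array from cells given dsDNA with Lipofectamine 2000 for 9 h, with 300 ng of total RNA per sample. There were no replicates, the labels name no separate clones or cultures of a construct, and they do not say whether control cells received the lipid without DNA. A difference between 2 arrays therefore carries no error, and a difference between constructs holds any other difference between the cell populations.

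STING is a membrane adaptor of the endoplasmic reticulum that is activated by the cyclic dinucleotide which the DNA sensor cGAS makes. It recruits the kinase TBK1, which activates the transcription factor IRF3 and with it type I interferon genes, and the secreted interferon then induces a broad antiviral program through STAT proteins and IRF9. Many genes of that program lie in mouse clusters of recent duplicates, and so do the histone genes, which is why several members name a family of copies and not a gene. A reading shared by copies does not say which copy was transcribed.

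The 65 probe sets fell into 53 groups that share a symbol, which were sorted by hand from gene nomenclature into 10 families. Pairs of different genes such as Parp10/Plec and Irf5/Tnpo3 were placed by 1 of their symbols. Earlier results of these data were known, so the sorting was not blind to the readings. The members named 137 symbols, 133 of which were in RefSeq's genes (assembly GRCm38.p6). In that table the named genes of 59 members lay on 1 chromosome, those of 5 on several, and those of 1, Palm2/Akap2, were not found. In 14 members the named gene models overlapped, as for the transcription factor gene Irf5 and its neighbour Tnpo3, and the remaining members were near-identical copies, neighbours or genes with no overlap in position.

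The element through which interferon-activated factors bind DNA has a core of repeated GAAA, searched here on both strands as GAAA, any 2 bases, then GAAA again, the only motif searched. RefSeq promoters of GRCm38.p6, from 250 bases before to 50 after the start site, were given for 91 of the 137 symbols. The motif was in 17 of them, 18.7%, and in 1079 of the 27025 genes of the promoter table, 3.99%. The 17 include both genes of several pairs of copies, such as Ifna5 and Ifna6 or Oas1a and Oas1g. They are therefore not independent of each other, and the 2 shares are given as a description. By family it was in 2 of 2 promoters of the Ifi200 genes, 5 of 9 of the interferon-induced GTPases, 5 of 11 of other interferon-response genes, 2 of 8 of the interferons, 1 of 3 of class I, 1 of 23 of the histones and 1 of 16 of the unrelated gene pairs. It was in 0 of 7 for the SP100 family, 0 of 9 for other paralogue pairs and 0 of 3 for hosts of small RNAs. A match is a stretch of letters and not a binding site.

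The stretches around the motif in 5 pairs of copies are printed to show how alike the DNA of genes that share a probe set can be. Capitals mark the motif or its reverse complement, with 40 bases on either side. The Ifna5 stretch lies at chr4:88835320-88835409 and the Ifna6 stretch at chr4:88827211-88827300, both on the plus strand of GRCm38.p6. Oas1a lies at chr5:120907490-120907585 and Oas1g at chr5:120887576-120887671, both on the minus strand. Tgtp1 lies at chr11:48992274-48992363 and Tgtp2 at chr11:49064233-49064322, also on the minus strand. Slfn9 lies at chr11:82991826-82991915 and Slfn8 at chr11:83020809-83020898 on the minus strand, and Gbp2 at chr3:142620564-142620653 and Gbp2b at chr3:142594670-142594759 on the plus strand.
Ifna5: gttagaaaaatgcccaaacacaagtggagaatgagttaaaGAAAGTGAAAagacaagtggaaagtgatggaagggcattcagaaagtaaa
Ifna6: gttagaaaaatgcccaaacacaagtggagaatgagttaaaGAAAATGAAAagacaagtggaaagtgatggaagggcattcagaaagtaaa
Oas1a: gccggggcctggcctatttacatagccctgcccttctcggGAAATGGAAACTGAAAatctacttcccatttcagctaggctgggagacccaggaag
Oas1g: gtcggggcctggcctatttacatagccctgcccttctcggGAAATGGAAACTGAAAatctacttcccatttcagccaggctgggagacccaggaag
Tgtp1: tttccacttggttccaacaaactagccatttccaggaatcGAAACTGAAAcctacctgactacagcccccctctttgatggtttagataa
Tgtp2: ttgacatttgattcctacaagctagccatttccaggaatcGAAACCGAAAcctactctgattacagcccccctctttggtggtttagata
Slfn9: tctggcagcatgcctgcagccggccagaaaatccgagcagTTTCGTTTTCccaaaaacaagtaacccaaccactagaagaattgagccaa
Slfn8: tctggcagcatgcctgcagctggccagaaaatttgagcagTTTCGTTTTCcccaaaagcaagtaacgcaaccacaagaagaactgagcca
Gbp2: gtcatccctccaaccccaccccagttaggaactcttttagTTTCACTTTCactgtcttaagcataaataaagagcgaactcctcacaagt
Gbp2b: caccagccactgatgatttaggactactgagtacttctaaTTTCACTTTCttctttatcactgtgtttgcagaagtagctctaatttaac
Counted from 1 at the left end of the printed stretch, Ifna5 and Ifna6 differed by G45A alone, and Oas1a and Oas1g by C2T and T76C, with the first gene's base written first. In Oas1a and Oas1g 2 matches of the motif overlap in the capitals.

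Further pairs were alike over the whole promoter. Arxes1 and Arxes2 were identical over all 300 bases, as were the interferon-like genes Gm13272, Gm13285 and Gm13287. Gm7609 and Sp100 shared 293 aligned bases and Prl2c3 and Prl2c5 shared 287. Neighbours that are not copies gave lower figures, 182 for Atrip and Trex1 and 178 for Irf5 and Tnpo3, and so did Gbp2 and Gbp2b with 172.

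The array gave fibroblast readings throughout. The 8 fibroblast markers, among them collagen genes, read 6.61 to 12.8, with a summed log2 level of 77.99 to 85.41 in control cells and 77.88 to 84.77 after dsDNA, and 4 of the 8 were 2-fold or more lower in R284S control cells than in vector control cells. The summed level of 8 macrophage and leukocyte markers was 31.03 to 32.16 and 31.05 to 33.59, that of 5 endothelial markers 17.94 to 18.88 and 17.37 to 19.72, and that of 6 measured of 7 epithelial markers 22.99 to 24.63 and 22.92 to 25.1. Sting1 itself read 3.68 to 4.22 on the 8 arrays, and since the labels give neither the deleted part nor a probe set for human STING, it does not check the constructs. Array medians lay between 3.79 and 3.85 and Pearson's r across probe sets between 0.973 and 0.989. In these bulk samples, fewer cells of a kind and less RNA per cell cannot be told apart.

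**Figure D1:**
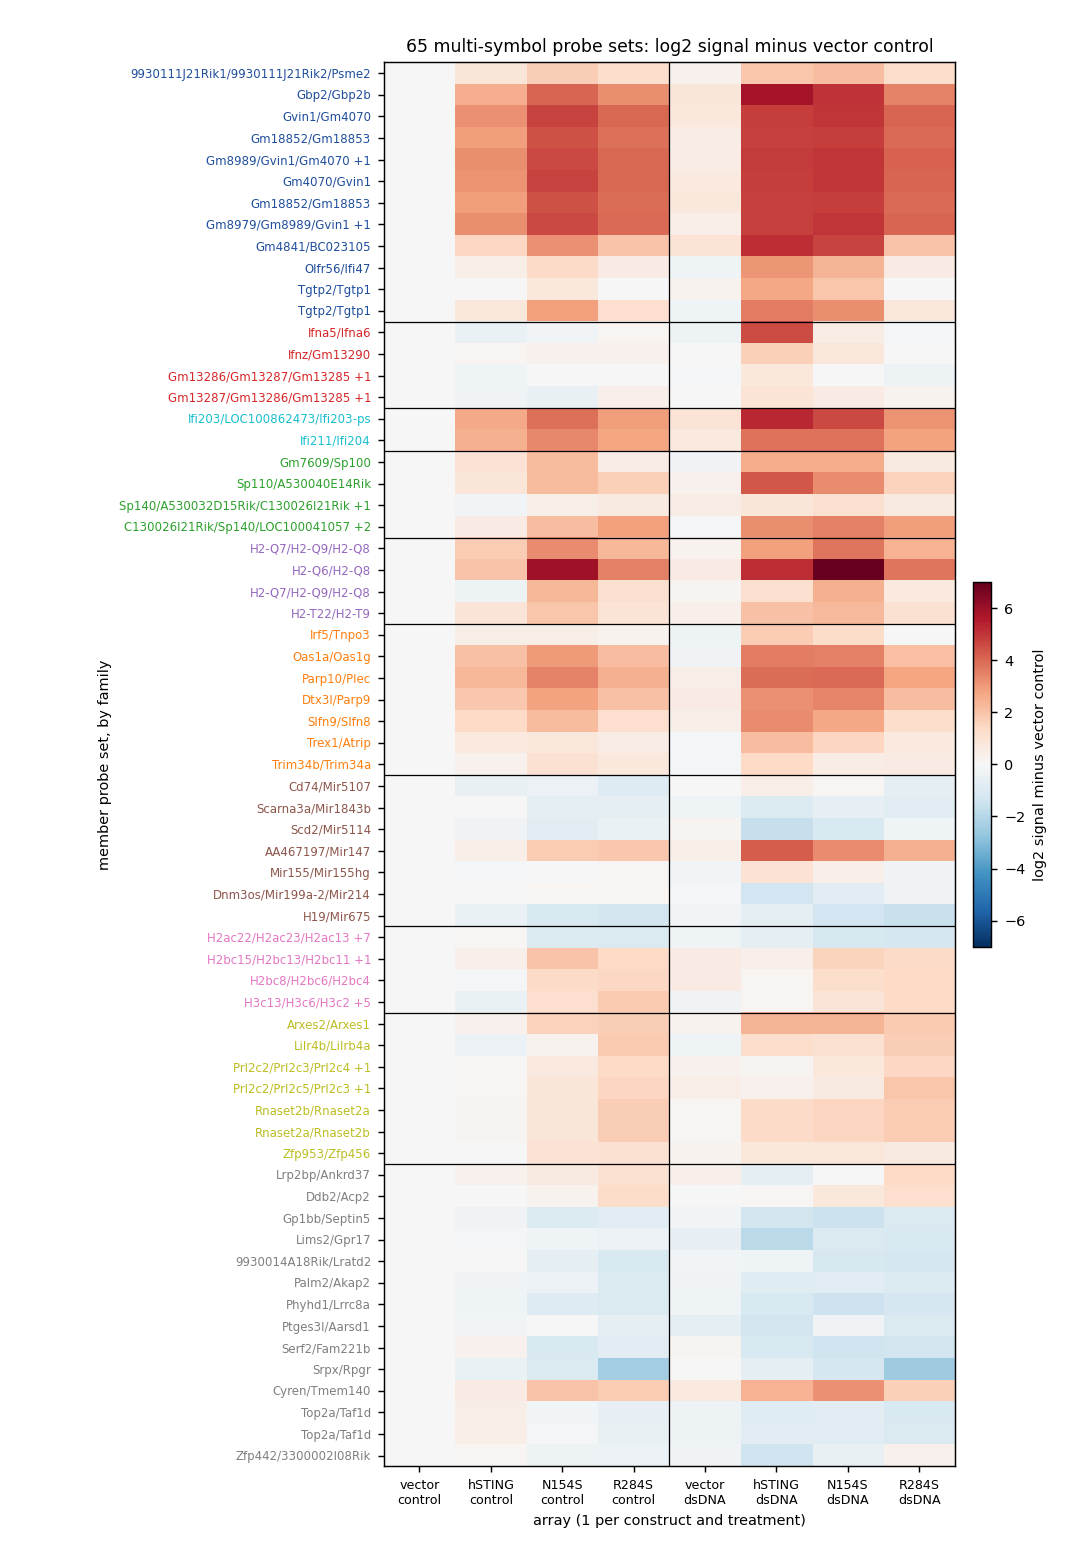
Log2 signal of each of the 65 members minus its own vector control signal, in the 8 arrays, grouped by family, with blue for lower and red for higher than vector control. Apart from the interferons, the interferon-related families in the upper rows are red in the hSTING dsDNA and both N154S arrays, with H2-Q6/H2-Q8 the darkest at 6.95, while the lowest block of unrelated gene pairs is mostly pale blue.

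In the comparisons that chose the members, those of interferon-related families lay on one side and the rest on both. Members of 6 interferon-related families, 33 in all, had a median difference of 1.66 in R284S control cells against vector control cells and of 1.61 in hSTING cells after dsDNA, and all 33 lay above 0 in both. The 32 members of the 4 other families had medians of -0.18 and -0.19, with members on both sides of 0. Over all members, 34 were higher by at least 2-fold and 6 lower in R284S control cells, where 1.71% of all probe sets differed that much (0.938% higher, 0.767% lower), and 40 were higher and 10 lower in hSTING cells after dsDNA, where 2.37% did (1.61% higher, 0.757% lower). Nothing is read from these medians, directions or counts, since the members were chosen by them. The hSTING dsDNA array was the brightest for 21 members and the N154S dsDNA array for 17, and the vector control array was the dimmest for 29.

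The interferon genes themselves stood apart from the genes that interferon induces. Ifna5/Ifna6, which names 2 interferon alpha genes, read high in 1 array only. Its log2 signal was 5.63, 5.17, 5.44 and 5.79 in vector, hSTING, N154S and R284S control cells, and 5.30, 10.17, 6.14 and 5.52 after dsDNA in the same order. The hSTING dsDNA array thus lay 4.03 above the next, and the other 7 arrays lay within 0.97 of each other. Ifna6 also had a probe set of its own, which read 7.04 in hSTING cells after dsDNA and 2.86 to 3.53 on the other 7 arrays. Ifnz/Gm13290, named for interferon zeta, read 6.91 in hSTING cells after dsDNA, 6.02 in N154S cells after dsDNA and 5.22 to 5.54 elsewhere.

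Further probe sets of the interferon zeta cluster were closer to the threshold. The first Gm13286/Gm13287/Gm13285/Gm13272 probe set read 5.34 in hSTING cells after dsDNA against 4.32 in their control, and the second 5.92 against 4.74. Of the other multi-symbol probe sets with the same symbols, 8 in the Ifnz group read between 2.75 and 6.61 and 2 in the Gm13272 group between 4.20 and 5.82, and none of these was a member. In R284S control cells against vector control cells the 4 interferon members differed by 0.02 to 0.35. There 0 of 4 reached 2-fold, where 1.71% of all probe sets did. All 4 were members through the dsDNA difference alone, so this count restates how they were chosen.

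The interferon-induced GTPases were the largest of the interferon-related families, with 12 probe sets in 6 groups. These proteins act on the membranes around intracellular pathogens. In the 6 probe sets of the very large GTPase Gvin1 and the related models Gm4070, Gm8979, Gm8989, Gm18852 and Gm18853, all 3 STING constructs read far above the vector without any added DNA. Gm8989/Gvin1/Gm4070/Gm8979, the brightest of them, read 5.70, 8.96, 10.33 and 9.72 in vector, hSTING, N154S and R284S control cells and 6.20, 10.57, 10.73 and 9.82 after dsDNA. Both vector arrays were low, and each of the 6 STING arrays read 8.96 or more. Gvin1/Gm4070 repeated the order at a lower level, with 4.92, 8.12, 9.63 and 8.96 in control cells and 5.65, 9.76, 9.94 and 8.98 after dsDNA. Across the 6 probe sets the difference of R284S control from vector control was 3.87 to 4.04, although their levels on 1 array lay up to 2.96 apart.

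Guanylate-binding proteins and the smaller immunity-related GTPases read higher after dsDNA in both hSTING and N154S cells. Gbp2/Gbp2b read 5.61, 8.18, 9.68 and 8.89 in vector, hSTING, N154S and R284S control cells and 6.45, 11.41, 10.68 and 9.06 after dsDNA. The order of the 3 STING lines was thus different with dsDNA, where hSTING was brightest. Gbp2b alone, on its own probe set, read 3.14 to 3.92 on all 8 arrays, so the shared reading followed a pattern that this single-gene probe set did not show.

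Gm4841/BC023105, a pair of immunity-related GTPase genes, read 2.82, 4.29, 6.0 and 4.81 in control cells and 3.75, 7.98, 7.53 and 4.83 after dsDNA, in the order vector, hSTING, N154S and R284S. Both genes had their own probe sets with the same high arrays: Gm4841 read 7.61 and 6.20 and BC023105 6.74 and 6.20 in hSTING and N154S cells after dsDNA, against 3.17 and 3.38 in vector control cells. Olfr56/Ifi47, an olfactory receptor gene beside the GTPase gene Ifi47, read 4.60, 5.0, 5.93 and 5.19 in control cells and 4.28, 7.71, 6.99 and 5.20 after dsDNA. For this pair the dsDNA arrays of hSTING and N154S were high and those of vector and R284S were not.

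The T cell-specific GTPases Tgtp1 and Tgtp2 shared 2 probe sets that did not give the same answer for R284S. The first read 3.88, 3.89, 4.61 and 3.90 in control cells and 4.12, 6.57, 5.82 and 3.90 after dsDNA. The second read 2.05, 2.85, 4.90 and 3.24 in control cells and 1.77, 5.63, 5.28 and 2.82 after dsDNA. R284S control cells thus differed from vector control cells by 0.02 on one and 1.19 on the other, the latter between signals under 4.5, while both gave a difference of 2.68 to 2.78 for dsDNA in hSTING cells. 9930111J21Rik1/9930111J21Rik2/Psme2, whose first 2 symbols are GTPase-like models, read 4.67, 5.50, 6.40 and 5.91 in control cells and 4.95, 6.62, 6.81 and 5.91 after dsDNA.

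**Figure D2:**
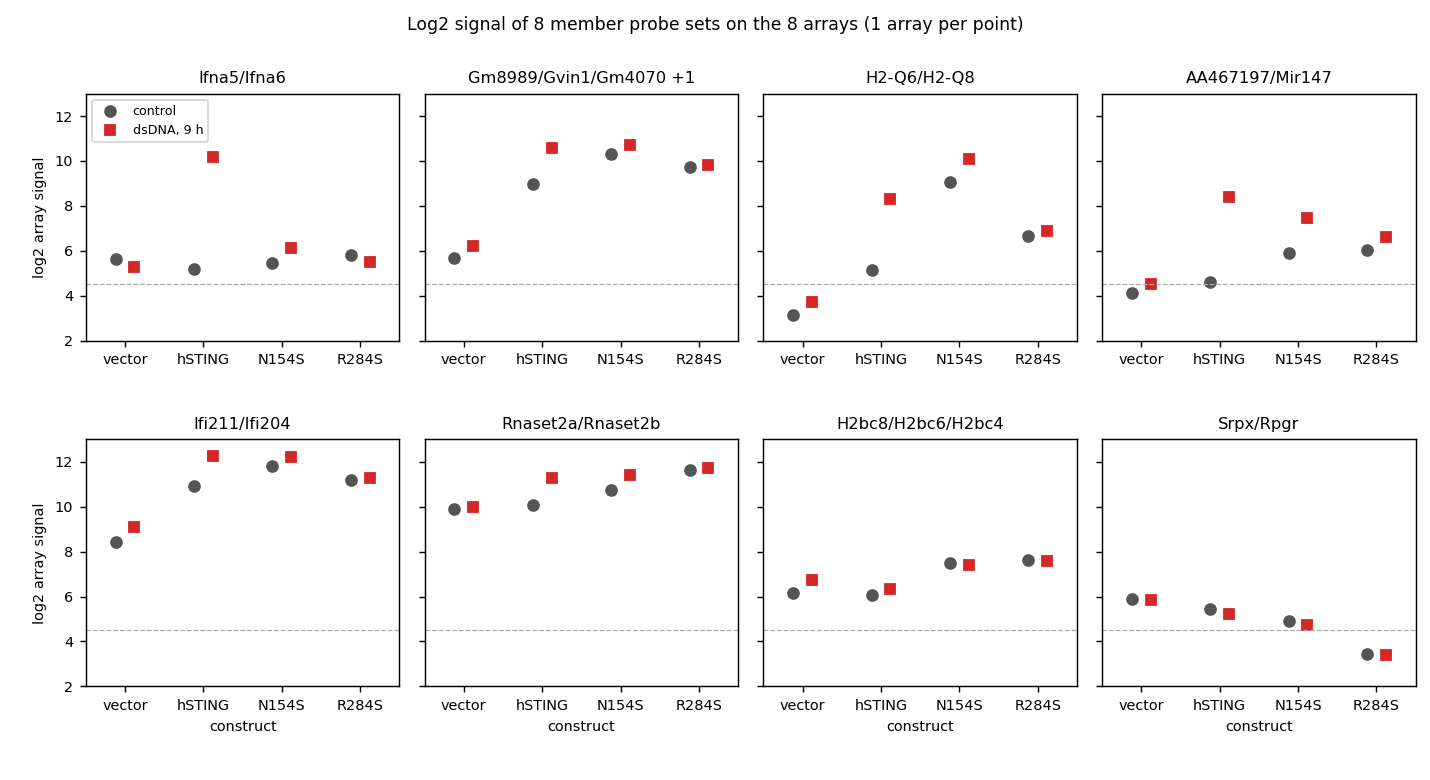
Log2 array signal of 8 members on the 8 arrays, grey circles for control and red squares for dsDNA, 1 array per point, with a dashed line at 4.5. Ifna5/Ifna6 is high in hSTING cells after dsDNA alone at 10.17, Gm8989/Gvin1/Gm4070/Gm8979 is high in all 6 STING arrays, and Srpx/Rpgr is lowest in R284S cells at 3.45 and 3.42.

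The Ifi200 genes encode DNA-binding proteins of the nucleus and cytosol, and their members were high in every STING line without dsDNA. Ifi211/Ifi204 read 8.43, 10.91, 11.80 and 11.19 in vector, hSTING, N154S and R284S control cells and 9.12, 12.24, 12.21 and 11.27 after dsDNA. Ifi204 alone read 3.19 in vector control cells and 7.23 to 9.32 on the 6 STING arrays. Ifi203/LOC100862473/Ifi203-ps read 2.64, 5.27, 6.47 and 5.59 in control cells and 3.61, 7.94, 7.27 and 5.81 after dsDNA. Ifi203-ps alone read 5.39, 5.54, 6.49 and 5.78 in control cells and 5.52, 7.8, 6.37 and 5.96 after dsDNA. Its own probe set was thus near the vector level in hSTING and R284S control cells. Vector cells were lowest on both treatments for all these readings. Between dsDNA and control, R284S cells differed least on the shared probe sets, by 0.08 and 0.22.

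The SP100 family, proteins of nuclear bodies with roles in chromatin and antiviral defence, had 4 members. Gm7609/Sp100 read 5.11, 6.10, 7.30 and 5.65 in vector, hSTING, N154S and R284S control cells and 4.89, 7.72, 7.72 and 5.76 after dsDNA. Sp110/A530040E14Rik read 3.79, 4.65, 5.98 and 5.45 in control cells and 4.09, 8.12, 7.08 and 5.43 after dsDNA. The hSTING and N154S dsDNA arrays were the high ones for both.

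Probe sets of Sp100 and Sp110 alone showed the same arrays as high. One of Sp100 read 3.69 in vector control cells, 6.90 in R284S control cells and 9.11 in N154S cells after dsDNA, while 2 others for Sp100 read 1.06 to 2.67. One of Sp110 read 3.45 in vector control cells and 8.23 in hSTING cells after dsDNA, and another of that gene read 1.47 to 1.99 on every array.

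The 2 probe sets of the Sp140 group differed in size. C130026I21Rik/Sp140/LOC100041057/LOC100041708/A530032D15Rik read 4.17, 4.74, 6.35 and 7.05 in control cells and 4.08, 7.45, 7.72 and 7.09 after dsDNA. The second, Sp140/A530032D15Rik/C130026I21Rik/LOC100041708, stayed between 4.96 and 6.25. R284S control cells exceeded vector control cells by 2.88 on the first and 0.62 on the second, for symbols that are nearly the same. The probe sets of C130026I21Rik alone read 3.26 to 4.58, and that of LOC100041057 alone read 2.59 to 3.81.

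Class I histocompatibility genes of the Q and T regions present peptides to or engage lymphocytes, and their members were highest in N154S cells. H2-Q6/H2-Q8 had the widest range of all members, 6.95. It read 3.14, 5.16, 9.08 and 6.64 in vector, hSTING, N154S and R284S control cells and 3.71, 8.32, 10.09 and 6.88 after dsDNA. N154S cells lay above hSTING and R284S cells on both treatments, and vector cells lay below all of them. The first H2-Q7/H2-Q9/H2-Q8 probe set was brighter with the same order in control cells, at 7.74, 9.54, 11.07 and 10.07, and 8.01, 10.60, 11.50 and 10.15 after dsDNA.

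The second H2-Q7/H2-Q9/H2-Q8 probe set read 4.93, 4.60, 7.26 and 6.03 in control cells and 5.13, 6.03, 7.44 and 5.63 after dsDNA. It carries the same 3 symbols as the first, yet hSTING control cells lay 0.33 below vector control cells on it and 1.80 above on the first. H2-T22/H2-T9 read 8.43, 9.33, 10.36 and 9.37 in control cells and 8.78, 10.46, 10.71 and 9.50 after dsDNA. All 4 class I members had their brightest array in N154S cells after dsDNA.

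Other interferon-response members named an antiviral gene together with a copy or with a different gene. Oas1a/Oas1g, genes of oligoadenylate synthetases that activate RNase L, read 4.43, 6.47, 7.40 and 6.59 in vector, hSTING, N154S and R284S control cells and 4.21, 8.03, 7.97 and 6.54 after dsDNA. Oas1g alone read 2.92 in vector control cells and 6.31 to 8.87 on the 6 STING arrays, so its own probe set showed the same arrays as high. Slfn9/Slfn8, of the Schlafen family, read 5.89, 7.29, 8.08 and 7.05 in control cells and 6.29, 9.20, 8.61 and 7.13 after dsDNA. Trim34b/Trim34a, of the tripartite motif proteins, stayed between 3.98 and 5.50, while a probe set of Trim34a alone ran from 3.41 in vector control cells to 6.78 in N154S cells after dsDNA. Another of Trim34a alone read 1.94 to 2.54 on all arrays.

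Members in this family also joined genes that do different things. Dtx3l and Parp9 encode a ubiquitin ligase and its partner, and Dtx3l/Parp9 read 5.62, 7.50, 8.44 and 7.65 in control cells and 6.19, 8.84, 9.05 and 7.80 after dsDNA. Parp9 alone followed at 5.33 in vector control cells and 7.83 to 9.19 on the 6 STING arrays. Parp10/Plec, an ADP-ribosyltransferase and the cytoskeletal linker plectin, read 4.26, 6.58, 7.72 and 6.76 in control cells and 4.73, 8.17, 8.23 and 7.0 after dsDNA. Both vector arrays were below all 6 STING arrays in each of these.

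Trex1 removes cytosolic DNA and so limits the cGAS signal, and Irf5 is a transcription factor of inflammatory genes. Trex1/Atrip read 4.54, 5.25, 5.33 and 5.05 in control cells and 4.45, 6.72, 6.03 and 5.22 after dsDNA. Irf5/Tnpo3 read 4.60, 5.01, 4.99 and 4.84 in control cells and 4.24, 6.39, 5.89 and 4.62 after dsDNA. In both, the dsDNA arrays of hSTING and N154S were the high ones, and neither R284S array stood out.

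Single-symbol probe sets gave a second reading of some of the genes. There were 54 of them, for 35 genes, and 32 members had at least 1 while 33 had none. Of the 54, 15 met the differences of the rule, 15 read under 4.5 on all 8 arrays, and 24 reached 4.5 somewhere without meeting them. For several pairs of different genes the single-symbol reading was flat where the shared one was not. Plec alone read 7.17 to 7.57, Tnpo3 8.82 to 9.26 and Atrip 6.29 to 6.69, and Psme2, a proteasome activator subunit, 5.69 to 6.13. 9930111J21Rik2 alone, in contrast, read 5.37 in vector control cells and 8.86 in hSTING cells after dsDNA. Probe sets of 1 gene can read different transcripts, so a flat reading of 1 symbol does not assign the shared signal to the other.

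**Figure D3:**
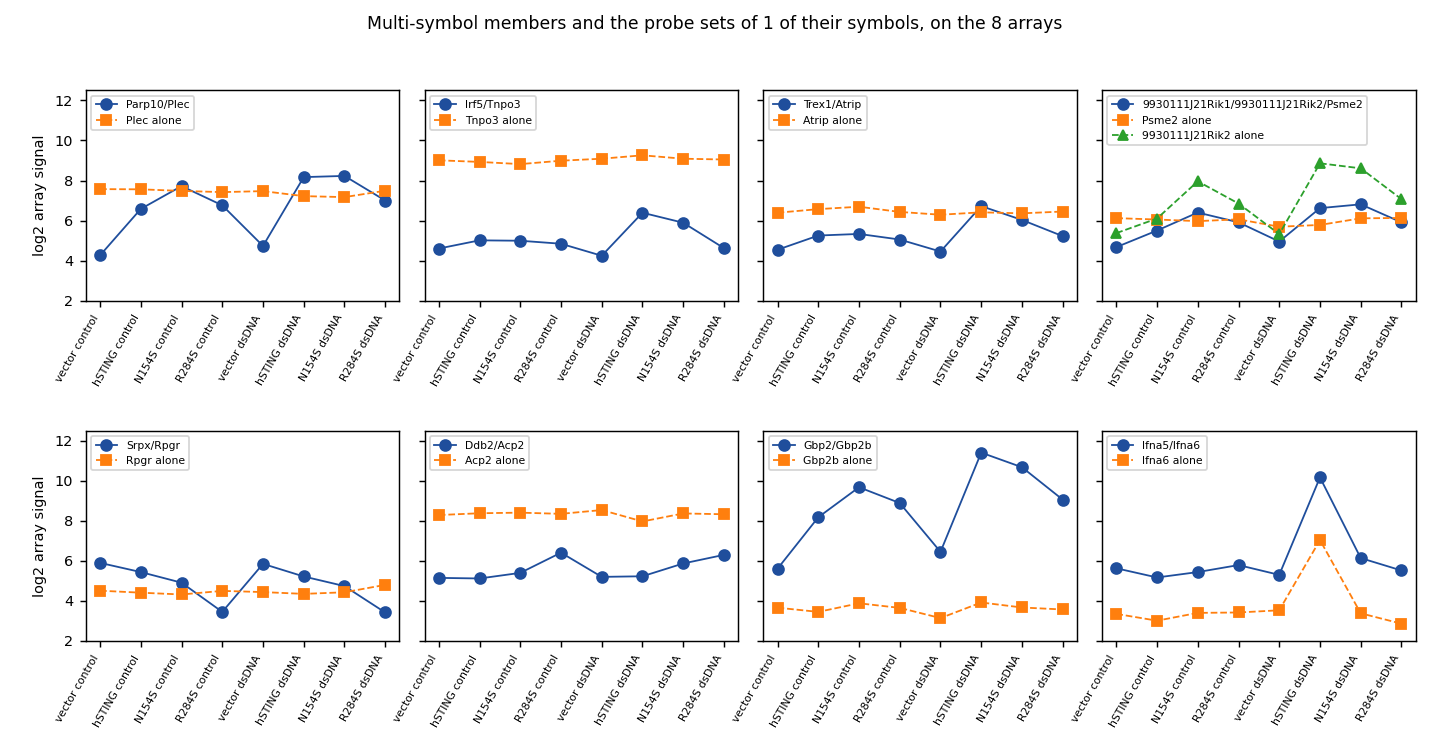
Log2 array signal of 8 members (blue circles) and of probe sets that name only 1 of their symbols (orange squares, green triangles), on the 8 arrays. Plec, Tnpo3, Atrip, Psme2, Rpgr, Acp2 and Gbp2b alone are nearly flat, while 9930111J21Rik2 and Ifna6 alone are high where their shared probe sets are.

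Members that name a small RNA read a host transcript or precursor, since mature microRNAs are not read by a probe set of this kind. Of 8 microRNA symbols among the members, 7 had mature sequences in RefSeq, 12 in all, and 0 seeds (bases 2 to 8) were shared. The 5 mature sequences below, one arm of each microRNA, belong to hosts described next as known from immune activation or mesenchymal growth. Capitals mark the seed, and build GRCm38.p6 gives miR-155-5p at chr16:84714143-84714165, miR-147-5p at chr2:122640814-122640837, miR-199a-5p at chr1:162217844-162217866 and miR-214-3p at chr1:162223438-162223459 on the plus strand, and miR-675-5p at chr7:142577112-142577133 on the minus strand.
mmu-miR-155-5p: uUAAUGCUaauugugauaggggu
mmu-miR-147-5p: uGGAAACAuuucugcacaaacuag
mmu-miR-199a-5p: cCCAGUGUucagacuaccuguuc
mmu-miR-214-3p: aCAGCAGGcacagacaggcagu
mmu-miR-675-5p: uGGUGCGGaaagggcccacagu

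AA467197/Mir147 was the small RNA host with the widest range, 4.26. AA467197 encodes a small mitochondrial protein induced in inflammation, with Mir147 in its transcript. It read 4.12, 4.61, 5.89 and 6.02 in vector, hSTING, N154S and R284S control cells and 4.52, 8.38, 7.44 and 6.60 after dsDNA. The dsDNA array was brighter than the control array in all 4 lines, by 0.40 in vector cells and 3.77 in hSTING cells. Mir155/Mir155hg, the host of a microRNA of immune activation, read 5.19 in hSTING cells after dsDNA, 4.54 in N154S cells after dsDNA and 3.97 to 4.26 elsewhere.

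Hosts linked to mesenchymal growth read lower. H19/Mir675, the imprinted noncoding RNA, read 9.05, 8.56, 8.0 and 7.76 in vector, hSTING, N154S and R284S control cells and 8.84, 8.40, 7.69 and 7.48 after dsDNA. Vector cells were highest and R284S cells lowest on both treatments, in the same order of lines. Dnm3os/Mir199a-2/Mir214 read 6.41 to 6.53 in the 4 control lines and 6.32, 5.09, 5.69 and 6.17 after dsDNA, so that the hSTING dsDNA array was the lowest.

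Scd2/Mir5114, named for a fatty acid desaturase of lipid synthesis, read 11.22, 10.98, 10.45 and 10.75 in control cells and 11.40, 9.58, 10.15 and 10.93 after dsDNA. Scarna3a/Mir1843b read 5.15 in hSTING control cells and 4.14 after dsDNA, a difference of -1.01. Cd74/Mir5107, named for the invariant chain of class II molecules, read 4.07 and 5.07 in hSTING cells, which is at the threshold itself, and lay between 3.68 and 4.64 in the other lines.

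Histone members were chosen by R284S alone, and they did not point one way. H2bc8/H2bc6/H2bc4 read 6.18, 6.08, 7.50 and 7.64 in vector, hSTING, N154S and R284S control cells and 6.73, 6.32, 7.40 and 7.58 after dsDNA. H3c13/H3c6/H3c2/H3c4/H3c3/H3c7/H3c15/H3c14 read 4.10, 3.65, 5.25 and 5.93 in control cells and 3.83, 4.21, 4.99 and 5.52 after dsDNA. The N154S and R284S arrays were above the vector and hSTING arrays in both, and so were those of H2bc15/H2bc13/H2bc11/H2bc7, at 6.15 and 5.55 in N154S and R284S control cells against 4.17 and 4.5. The H2A member with H2ac22 and 9 further symbols read 10.95 in vector control cells and 9.93 in R284S control cells, a difference of -1.02.

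Other probe sets with the same histone symbols were not members, and their bright readings went both ways. An H2bc13/H2bc15/H2bc11/H2bc7 probe set read 11.67 in vector control cells and 11.26 in R284S control cells, whereas the member with these symbols was 1.38 higher. An H2bc4/H2bc8/H2bc6 probe set read 11.07 and 11.59, a difference of 0.52 where the member's was 1.46. In all, 8 further H2A probe sets differed by -0.92 to 0.75 in this comparison, 7 for H3 by -0.63 to 1.20, and 7 for H2B by -0.43 to 0.52. Histone probe sets thus read both ways, and no direction is given for histone genes as a whole.

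Among other paralogue pairs, the lysosomal ribonuclease genes Rnaset2a and Rnaset2b gave the steadiest reading. Rnaset2a/Rnaset2b read 9.91, 10.08, 10.76 and 11.63 in vector, hSTING, N154S and R284S control cells and 9.99, 11.27, 11.42 and 11.71 after dsDNA. A second probe set with these symbols never differed from it by more than 0.01. R284S cells were highest on both treatments, and hSTING and N154S cells came within 0.44 of them after dsDNA. Arxes2/Arxes1, genes of the X chromosome known from adipocytes, read 6.20, 6.48, 7.82 and 7.93 in control cells and 6.42, 8.57, 8.60 and 8.05 after dsDNA, while another probe set for both stayed between 4.14 and 5.02.

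Probe sets shared by proliferin genes and by inhibitory receptor genes were highest in R284S cells. The first Prl2c2/Prl2c3/Prl2c4/Prl2c5 probe set, for a growth factor family related to prolactin, read 4.24, 4.32, 4.90 and 5.64 in control cells and 4.53, 4.41, 5.0 and 5.71 after dsDNA. The second read 4.12, 4.21, 4.98 and 5.60, and 4.58, 4.43, 4.76 and 6.08. Lilr4b/Lilrb4a, leukocyte immunoglobulin-like receptor genes, read 2.86, 2.44, 3.13 and 4.70 in control cells and 2.54, 4.11, 3.94 and 4.60 after dsDNA.

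Lilrb4a alone ran higher, at 5.70, 6.23, 8.16 and 9.58 in control cells and 6.43, 9.02, 9.54 and 9.82 after dsDNA. R284S cells were again the highest on both treatments. This gene is best known from leukocytes, and the summed macrophage and leukocyte markers, given above, lay between 31.03 and 33.59 on all 8 arrays, with Lilrb4a not among them. The part of other cell types in this reading was not tested. Zfp953/Zfp456, a pair of zinc finger genes, read 3.53 in vector control cells and 4.60 in R284S control cells.

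Pairs of unrelated genes held most of the members that were lower. Of 14, 4 were 2-fold or more lower in R284S control cells, where 0.767% of all probe sets were. In hSTING cells after dsDNA 7 were lower, where 0.757% of all were. These comparisons chose the members, and pairs that name an interferon-response gene were sorted into other families, so the counts are a description. Srpx/Rpgr, a secreted sushi-repeat protein gene and a cilium gene, read 5.90, 5.44, 4.91 and 3.45 in vector, hSTING, N154S and R284S control cells and 5.85, 5.22, 4.74 and 3.42 after dsDNA. Vector cells were highest and R284S cells lowest, and control and dsDNA lay within 0.22 in every line. Rpgr alone read 4.32 to 4.80. Serf2/Fam221b read 7.14, 7.43, 6.06 and 6.41 in control cells and 7.32, 6.09, 5.74 and 5.88 after dsDNA, and Serf2 alone 6.53 to 7.08.

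Top2a/Taf1d, a topoisomerase of dividing cells and a transcription factor subunit, had 2 probe sets at nearly the same level. The first read 9.65, 10.06, 9.47 and 9.06 in control cells and 9.27, 8.78, 8.85 and 8.60 after dsDNA, and the second lay up to 0.39 above it. The dsDNA array was lower than the control array in all 4 lines, by 0.38, 1.28, 0.62 and 0.46 on the first. Top2a alone read 7.09 to 7.85 with differences of 0.20, -0.23, -0.09 and -0.04 between dsDNA and control, so its own probe set did not show this. Taf1d had 11 probe sets of its own, 4 of which read lower after dsDNA in all 4 lines. One of these read 7.77, 7.98, 7.65 and 7.48 in control cells and 7.50, 7.59, 7.03 and 7.33 after dsDNA, in the order vector, hSTING, N154S and R284S. Another of the 4 had identical values on all 8 arrays, so the 4 are not all separate readings.

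Lims2/Gpr17, a focal adhesion gene and a receptor gene, read 7.16, 7.01, 6.87 and 6.73 in vector, hSTING, N154S and R284S control cells and 6.57, 5.25, 6.16 and 6.08 after dsDNA. It was lower with dsDNA in all 4 lines. Gp1bb/Septin5, a platelet receptor subunit and its neighbour, read 7.65, 7.39, 6.71 and 6.92 in control cells and 7.46, 6.37, 6.13 and 6.66 after dsDNA. Phyhd1/Lrrc8a, the latter a volume-regulated anion channel subunit, read 6.0 in vector control cells and 5.0 in R284S control cells, while Lrrc8a alone read 8.18 to 8.62. Palm2/Akap2 and 9930014A18Rik/Lratd2 were lower in R284S control cells by 1.02 and 1.04. Ptges3l/Aarsd1 and Zfp442/3300002I08Rik were lowest in hSTING cells after dsDNA, at 3.61 and 3.36.

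A few unrelated pairs read higher. Cyren/Tmem140, a regulator of DNA repair and a membrane protein gene, read 3.25, 3.82, 5.23 and 5.02 in control cells and 3.92, 5.71, 6.43 and 4.92 after dsDNA, and Tmem140 is the gene of this family whose promoter held the motif. Another probe set for both genes read 5.20 to 5.62. Ddb2/Acp2, a DNA damage recognition gene and a lysosomal phosphatase gene, read 5.15, 5.12, 5.40 and 6.41 in control cells and 5.20, 5.23, 5.87 and 6.30 after dsDNA. The R284S arrays were the highest there, and Acp2 alone read 7.97 to 8.54. Lrp2bp/Ankrd37, the latter a hypoxia-induced gene, read 5.59, 5.88, 6.21 and 6.68 in control cells and 5.97, 4.93, 5.58 and 7.01 after dsDNA.

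Arrays that did not choose the members showed the mutants above vector cells under dsDNA as well, for most members of the interferon-related families in N154S and for 17 of 33 in R284S. In N154S cells after dsDNA against vector cells after dsDNA, 33 of the 65 were at least 2-fold higher and 6 lower, where 2.37% of all probe sets differed that much, 1.3% higher and 1.07% lower. In R284S cells after dsDNA against the same vector array, 28 were higher and 3 lower, where 2.12% differed, 1.07% higher and 1.05% lower. The median difference of the members was 1.40 and 0.85, against 0.00 and 0.02 over all probe sets, and both comparisons share the vector dsDNA array. Of the 1745 multi-symbol probe sets that were no members, 0.688% and 0.573% differed 2-fold or more. These are the probe sets that did not meet the rule, so their low share follows partly from the choice and is no baseline. R284S and vector are also the lines whose control arrays chose members, so the arrays are others but the lines are the same.

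By family, N154S exceeded vector under dsDNA by 2-fold or more for 12 of 12 GTPase, 4 of 4 class I, 2 of 2 Ifi200, 6 of 7 other interferon-response and 3 of 4 SP100 members, and for 0 of 4 interferon members. For R284S the counts were 8 of 12, 2 of 4, 2 of 2, 3 of 7, 2 of 4 and 0 of 4. R284S reached 6 of 7 other paralogue pairs, where N154S reached 3. All 7 had been chosen as higher in R284S control cells, and of the 33 interferon-related members 20 had. Differences between the mutants in these family counts are thus partly set by the choice. Among unrelated gene pairs 4 of 14 were lower in N154S and 2 of 14 in R284S. The widest differences were H2-Q6/H2-Q8 at 6.38 in N154S and Gm8989/Gvin1/Gm4070/Gm8979 at 3.62 in R284S.

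Members chosen as higher mostly read higher in the dsDNA comparisons with vector cells as well. R284S against vector repeats, on other arrays of the same lines, a contrast that chose members, so it is no separate check. N154S against vector shares the vector line with it. Over all probe sets, 1.07% were higher and 1.05% lower in R284S, and 1.3% and 1.07% in N154S. Of the 34 that were higher in R284S control cells, 28 were 2-fold or more higher in R284S cells after dsDNA against vector cells after dsDNA, and 26 in N154S cells. Of the 40 that were higher in hSTING cells after dsDNA, 22 and 32 were. Of the 6 lower in R284S control cells, 2 were 2-fold or more lower in R284S and 3 in N154S, and all 6 lay below 0 in both. Of the 10 lower in hSTING cells after dsDNA, 1 and 3 were, and 9 lay below 0 in each. The lower members had been chosen nearer the threshold. Their median was -1.03 in R284S control cells, against 1.87 for the higher members, and -1.3 against 1.6 in hSTING cells after dsDNA. All 40 dsDNA-higher members lay above 0 in N154S and 36 of them in R284S.

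**Figure D4:**
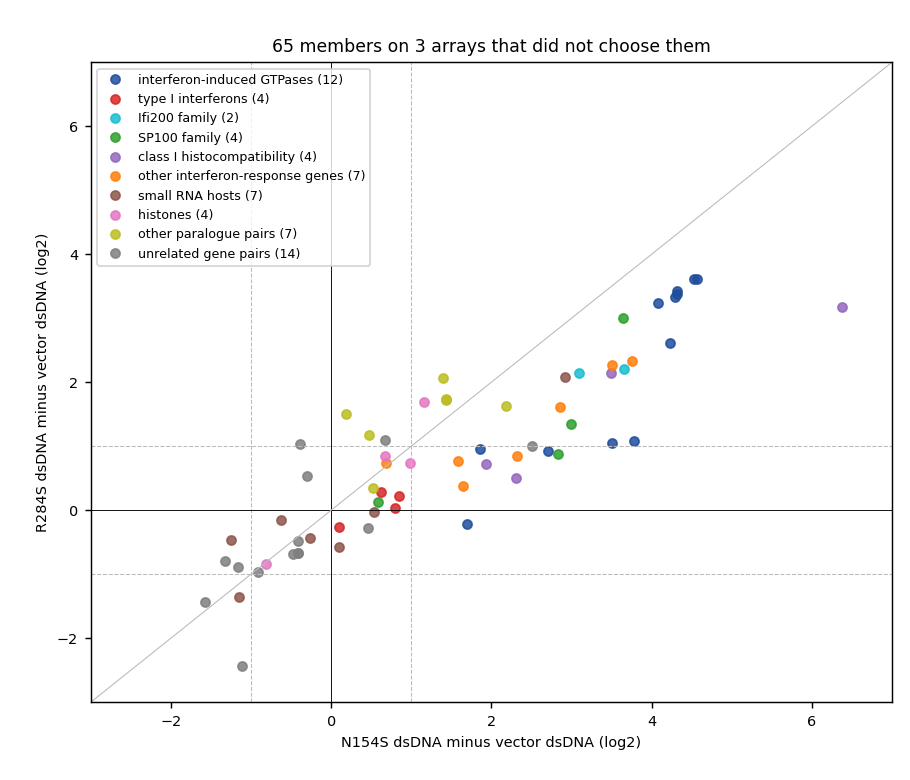
Log2 difference from vector cells after dsDNA, N154S on the horizontal and R284S on the vertical axis, 1 point per member, coloured by family, with dashed lines at differences of 1 and a diagonal of equal values; both axes share the vector dsDNA array. Interferon-related members lie mostly below the diagonal, H2-Q6/H2-Q8 farthest right at 6.38, and Srpx/Rpgr lowest at -2.43.

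Set against each other under dsDNA, N154S cells read higher than R284S cells for much of the interferon program. This comparison uses arrays that did not choose the members, and it was added after the data were seen. The R284S line, however, took part in the choice. All 33 members of interferon-related families met the hSTING dsDNA difference, and 20 met the R284S difference. The rest, such as the Tgtp2/Tgtp1 probe sets, did not meet it in R284S control cells, so lower R284S readings are favoured by the choice. Of the 65, 19 were at least 2-fold higher in N154S and 2 lower, where 1.08% of all probe sets differed that much (0.682% higher, 0.394% lower), and 10 in all did so with a difference of 1.5. Of the 33 members of interferon-related families, 17 were higher and 0 lower, with a median of 1.21, and 32 lay above 0. H2-Q6/H2-Q8 differed by 3.21, Gm4841/BC023105 by 2.70 and the Tgtp2/Tgtp1 probe sets by 1.92 and 2.46. The 2 that read lower in N154S were Lrp2bp/Ankrd37 at -1.43 and a Prl2c2/Prl2c5/Prl2c3/Prl2c4 probe set at -1.32. Members of the 4 other families had a median of 0.04.

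Differences from vector cells were also present without dsDNA. In N154S control cells against vector control cells, 31 members were at least 2-fold higher and 2 lower, where 1.42% of all probe sets differed that much (0.878% higher, 0.544% lower). In hSTING control cells 15 were higher and 0 lower, where 0.738% differed (0.498% higher, 0.239% lower), and all 15 belonged to interferon-related families. In hSTING cells after dsDNA against vector cells after dsDNA, 36 were higher and 7 lower, where 2.61% differed (1.77% higher, 0.847% lower). These 3 comparisons each use at least 1 array that chose the members.

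The response to dsDNA within a line was uneven between the lines. In N154S cells 10 of the 65 members were 2-fold or more higher after dsDNA and 0 lower, where 0.803% of all probe sets differed that much (0.474% higher, 0.329% lower), and 2 of them remained with a difference of 1.5. These 2 were AA467197/Mir147 at 1.55 and Gm4841/BC023105 at 1.53. In R284S cells 0 members differed 2-fold or more, with differences of -0.65 to 0.71, where 0.651% of all probe sets did. In vector cells 0 differed either, with differences of -0.71 to 0.97 and 0.61% of all probe sets past the threshold. The median member differed by 0.39 in N154S, 0.00 in R284S and 0.08 in vector cells, against 1.18 in hSTING cells, whose arrays chose the members. The R284S and vector control arrays also took part in choosing members, by their difference from each other, so within-line differences of these lines are not free of the rule and are given as a description; those of N154S share no array with it.

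**Figure D5:**
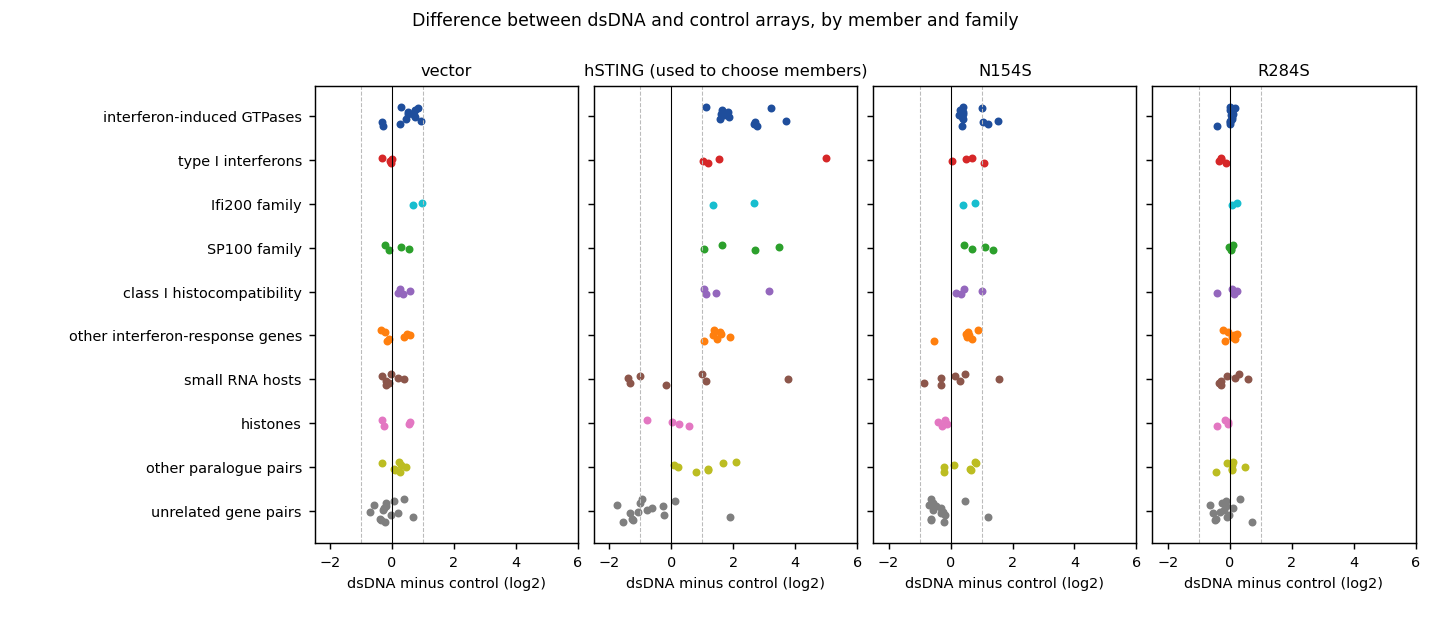
Log2 difference between the dsDNA and control arrays of each line, 1 point per member, by family, with dashed lines at differences of 1. In R284S all points lie between -0.65 and 0.71, in vector cells between -0.71 and 0.97, and Ifna5/Ifna6 is the rightmost point in hSTING at 5.0.

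Within vector cells, which lack STING, 22 of the 33 members of interferon-related families read higher after dsDNA and 11 lower, with 0 of them reaching 2-fold. The vector control array took part in choosing members, many of them for being low on it, so higher readings after dsDNA are favoured by the choice. Ifi203/LOC100862473/Ifi203-ps differed by 0.97, Gm4841/BC023105 by 0.93, Gbp2/Gbp2b by 0.84 and the 6 Gvin1 probe sets by 0.46 to 0.75. Irf5/Tnpo3 differed by -0.36, Olfr56/Ifi47 by -0.32 and Oas1a/Oas1g by -0.22, and the 4 interferon members by -0.33 to 0.01. The interferon-stimulated list below had a median of 0.87 in vector cells, with 14 of 37 genes 2-fold or more higher.

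A test was possible for the mean dsDNA effect over the vector, N154S and R284S lines, a mean in which the R284S and vector control arrays that chose members have equal weight, so that their difference cancels. With limma over all 41345 probe sets and Benjamini-Hochberg adjustment, 0 members and 0 probe sets passed at 0.05. At an unadjusted p under 0.05 there were 17 members, 9 of them higher, and 2743 probe sets, 6.63% of all. The smallest adjusted p among members was 0.641, for Lims2/Gpr17 at -0.65 (SE 0.10), which was lower in all 3 lines. Gbp2/Gbp2b was higher by 0.67 (SE 0.19, limma adjusted p = 0.748) and AA467197/Mir147 by 0.84 (SE 0.25, limma adjusted p = 0.748), each higher in all 3. With 2 residual degrees of freedom, which hold the unevenness of the effect between lines, a p above the threshold does not show that dsDNA left these readings the same.

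Genes that have a probe set of their own give the pathway around the members. A list of 40 interferon-stimulated genes had 37 with a reading. Of these, 33 were at least 2-fold higher in R284S than in vector control cells (median difference 2.74), and 29 in hSTING cells after dsDNA (median 1.33). Against vector cells after dsDNA, 37 were higher in N154S (median 2.91) and 28 in R284S (median 1.86), with 0 lower in any of these. Oasl1, Cmpk2 and Rsad2, all antiviral effectors, differed most in N154S cells after dsDNA, by 6.35, 5.98 and 5.56. Within a line, 8 were higher after dsDNA in N154S and 0 in R284S.

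Of 15 measured class I antigen presentation genes, 13 were 2-fold or more higher in N154S and 6 in R284S against vector cells after dsDNA. Of 19 measured targets of NF-kB, the inflammatory factor that STING also activates, 12 were higher in hSTING cells after dsDNA, 6 in N154S and 2 in R284S against vector cells after dsDNA, and 1 in R284S control cells. Of 9 measured housekeeping genes, 0 differed 2-fold in any comparison. These lists had been chosen with earlier results of these data known.

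The threshold cut through close values. Just inside it in R284S control cells were Zfp953/Zfp456 at 1.07 and Phyhd1/Lrrc8a at -1.0, and just outside were an H3 probe set at 0.96 and Gm19399/Hmgn2 at -0.94. Just inside it for dsDNA in hSTING cells were Cd74/Mir5107 at 1.0 and Scarna3a/Mir1843b at -1.01, and just outside were Prdx1/Gm21399 at 0.94 and Ftl1/Ftl2-ps/Ftl1-ps2 at -0.98.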

How the data were processed

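Expression was measured on 8 Affymetrix arrays, 1 per construct and treatment, from RNA prepared with WT PLUS reagents per the labels' protocols. The authors deposited log2 values with 2 decimals. They used Affymetrix Expression Console (1.3.1.187, per the submitters' processing notes); its algorithm and the build of the array are not stated in the labels. Array distributions were already nearly the same, with sorted values of any pair of arrays at most 0.25 apart, so the deposited log2 values were used as they are. The number of arrays limits the precision.

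Names came from GEO's platform annotation, which can be old and gives several entries for 1814 probe sets. In 4 of these the entries repeated 1 symbol, and they were not counted among the 1810, among them a Gm14636 probe set that met the rest of the rule. Every member may be named, with the single-symbol probe sets of its genes, the nearest 3 probe sets on each side of the thresholds and at most 3 genes of a list. The members, families and lists were chosen with earlier results of these data known, and the comparison of N154S with R284S cells after dsDNA was added after the data were seen.

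For a list gene with several single-symbol probe sets, the brightest on average was taken. Differences of 2 arrays have no test. The dsDNA effect was fitted with limma 3.58.1 in R 4.3.3 (lmFit and eBayes, construct as a block) and tested on simulated data. Sequences were read from RefSeq tables with Python 3.11.15 and Biopython 1.88. Alternatives were the minimum signal, the difference, quantile normalization, 1 probe set per group, all 4 lines, a trended robust eBayes, a signal filter and leaving out each line.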

Additional observations from a re-analysis of the deposited data

Results flagged for a closer look

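Lrp2bp/Ankrd37 differed from vector cells in opposite directions between constructs under dsDNA. After dsDNA the hSTING array read 1.04 below the vector array, a difference of -1.04, and the R284S array read 1.04 above it, with signals of 4.93 and 7.01 against 5.97. Each construct has 1 array, so the difference between the constructs was not tested. Lrp2bp alone read 2.58 to 2.94 on all 8 arrays.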

How the results depend on the processing

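Of 57 alternative settings over all counts of members, 54 gave a count within 1.5 times the reported one. A 0 that stayed 0 was counted among these, as in the limma fits and for dsDNA against control in R284S and in vector cells. With a difference of 1.5 the rule gave 34 members in place of 65, the count in N154S cells after dsDNA against their control became 2 in place of 10, and that of N154S against R284S cells after dsDNA became 10 in place of 21. Quantile normalization gave 64 members, all among the 65, and moved no member's difference by more than 0.08. Without a minimum signal there were 73, with a minimum of 6 there were 48, and with 1 probe set per group there were 53. The limma fit called 0 members in every alternative: at an unadjusted p under 0.05 there were 27 with all 4 lines (8.25% of all probe sets), 30 with a trended robust eBayes (7.73%), 25 of 58 with the signal filter (10.6%) and 20 after quantile normalization (6.7%). Leaving out the vector, N154S or R284S line gave 6, 6 and 18 (5.37%, 5.22% and 5.54%). The fit with all 4 lines includes the hSTING difference that chose members. Without the vector or the R284S line, the control arrays that chose members no longer cancel. The counts of these fits are thus not free of the rule, and nothing is read from them. Without replicates, none of these settings measures the error of a difference. The fit pairs the control and dsDNA arrays of a line through the construct block, and the labels give no replicate numbers to pair by.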

Other observations

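Probe sets that share symbols agreed closely in some groups and not in others. In R284S control cells against vector control cells, the differences lay 0.01 apart for the 2 Rnaset2a/Rnaset2b probe sets (1.72 and 1.73) and between 3.87 and 4.04 for the 6 of the Gvin1 group, but between 1.10 and 3.50 for the 3 of the H2-Q group, at 0.62 and 2.88 for the 2 of the Sp140 group and at 0.02 and 1.19 for the 2 of Tgtp2/Tgtp1. Some deposited probe sets that were no members carried identical values on all 8 arrays, such as 2 Csprs/Gm7609 probe sets that read 2.66 to 3.72 and 2 of the H2A group that read 10.32 to 11.11.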
